A study of Homo sapiens with 34 samples.

Results

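The genes described here were 10 genes of the extracellular matrix that are known for binding to, or assembling around, collagen fibres. They were POSTN, TGFBI, FN1, DCN, LUM, BGN, FMOD, OGN, ASPN and PRELP, chosen by name from the 20255 genes of the expression table. Each was followed over all 12 cell populations of a blood differentiation course. Of the 10 genes, 9 passed a filter on low values, and ASPN did not.

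The extracellular matrix is the network of secreted proteins that cells attach to. FN1 encodes fibronectin, a glycoprotein that cells assemble into fibrils through integrins. POSTN (periostin) and TGFBI (transforming growth factor beta induced protein) are related secreted proteins built from fasciclin domains, and both bind collagens and integrins. DCN (decorin), BGN (biglycan), ASPN (asporin), LUM (lumican), FMOD (fibromodulin), PRELP (prolargin) and OGN (osteoglycin) belong to the small leucine-rich proteoglycans. Several members of that family bind collagen and affect how its fibrils form, and decorin and biglycan also bind growth factors of the TGF-beta family. In tissues these proteins are made largely by fibroblasts and other stromal cells.

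The cells came from H1, a human embryonic stem cell line, which was turned towards blood without added haematopoietic cytokines. RNA was sequenced from 34 samples, with 3 replicates in each of 11 populations and a single sample of undifferentiated H1 cells that had received no treatment. Embryoid bodies, which are floating clusters formed from the stem cells, were taken on day 0 and are labelled BMP4+hVEGF. Per the study's methods those factors were added when the bodies were set to attach, which is the start of day 0, and BMP4 was left out of the medium from about day 2, so how long the day 0 bodies had them is not given. All later populations had grown attached to collagen IV and carried the treatment label hVEGF. Unsorted cells were taken on days 2 and 4. Cells of days 6, 9 and 12 were sorted into CD43- and CD43+ fractions, CD43 being a surface protein of early blood cells. On day 16 the negative fraction was sorted as CD43-CD45- and the positive one as CD43+/CD45+, CD45 being found on most blood cells. For brevity both day 16 fractions are called CD43- and CD43+ below. Comparisons of day 16 with earlier days therefore mix time with this change of sort. All samples came from one cell line, so the replicates, which the methods call independent biological repeats, are not different donors.

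The values were read tag counts adjusted by the submitters for GC content and for differences between samples, and they are given here without a unit. Every sample summed to 17856940 with a median of 197 and a maximum of 90700, so a value says chiefly how high a gene stood in that sample. Given the GC adjustment, that standing may be among genes of similar GC content only. More than 1 gene can hold the maximum, as FN1 and the collagen gene COL1A1 both did in the CD43- samples of days 12 and 16. The depth behind each value is unknown. A gene was called changed when its difference was more than 4-fold on the log2(value + 1) scale with an adjusted p below 0.05, from 1 limma fit of 33 samples and 19788 genes with Benjamini-Hochberg adjustment. The sort was visible in SPN, the gene of CD43, which was at 18 to 328 in the CD43- samples of days 6 to 16 and at 2338 to 9460 in the CD43+ samples. PTPRC, the gene of CD45, stood at 4, 197 and 371 in the day 12 CD43- replicates and at 6920 to 12848 in the CD43+ samples of that day. A summed list of 10 mesenchymal markers ran from 45404 to 137530 in the CD43- samples and from 1951 to 7565 in the CD43+ samples of days 9 to 16, with all 10 markers at a value of at least 10 in each CD43- population. In the CD43+ samples of day 6 the same sum was 24486 to 47018. These are populations of mixed cells, so a lower value from fewer cells of a type and one from less RNA per cell cannot be told apart.

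Several of the genes are neighbours in the genome. On GRCh38, LUM lay at chr12:91102629-91111831 and DCN at chr12:91140484-91183123, both on the minus strand, with 28.7 kb and 0 protein-coding genes between them. OGN (chr9:92383967-92404696) and ASPN (chr9:92456205-92482506) lay 51.5 kb apart on the minus strand with OMD between them, and both overlap CENPP, which runs on the opposite strand. FMOD (chr1:203340628-203351489, minus strand) and PRELP (chr1:203475828-203491352, plus strand) lay 124.3 kb apart. POSTN (chr13:37562583-37598844, minus), TGFBI (chr5:136028895-136063818, plus), FN1 (chr2:215360440-215436172, minus) and BGN (chrX:153494939-153509554, plus) lay elsewhere, and BGN overlaps HAUS7 on the opposite strand. Whether the counting used strand was not given in the sources used here, so reads of overlapping genes may have been shared.

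Promoters, the DNA just before a gene's start, could be read from a RefSeq table for 8 of the 10 genes. The 4 below show the 250 bases before the RefSeq start on GRCh38.p14. These starts differ from the gene ends printed above. The windows of FN1, BGN and POSTN therefore run partly into those gene intervals, and that of FMOD lies wholly inside its interval. FN1 and BGN are shown because their difference in the CD43+ cells of day 6 from day 4 was under 4-fold, and POSTN and FMOD because theirs was over it. Capitals mark matches to 4 motifs searched on both strands. The TATA box, searched as TATAAA, was in 10.7% of 35116 RefSeq promoters of the same length. The GC box of Sp1-like factors, searched as GGGCGG, was in 42.6% of them, the AP-1 motif TGANTCA in 6.57%, and the E-box CACCTG in 17.5%, although in none of the 8 genes. Some of the GGGCGG matches of FN1 overlap one another.
FN1: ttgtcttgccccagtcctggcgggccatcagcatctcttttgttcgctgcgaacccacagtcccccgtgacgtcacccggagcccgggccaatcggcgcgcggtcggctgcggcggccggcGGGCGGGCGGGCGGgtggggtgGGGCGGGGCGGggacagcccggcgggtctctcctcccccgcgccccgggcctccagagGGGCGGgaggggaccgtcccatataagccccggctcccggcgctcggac
BGN: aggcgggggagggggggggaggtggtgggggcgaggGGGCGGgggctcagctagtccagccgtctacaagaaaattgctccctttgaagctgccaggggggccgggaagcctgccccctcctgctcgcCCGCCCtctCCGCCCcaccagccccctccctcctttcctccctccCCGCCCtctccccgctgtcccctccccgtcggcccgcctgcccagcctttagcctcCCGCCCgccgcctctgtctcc
FMOD: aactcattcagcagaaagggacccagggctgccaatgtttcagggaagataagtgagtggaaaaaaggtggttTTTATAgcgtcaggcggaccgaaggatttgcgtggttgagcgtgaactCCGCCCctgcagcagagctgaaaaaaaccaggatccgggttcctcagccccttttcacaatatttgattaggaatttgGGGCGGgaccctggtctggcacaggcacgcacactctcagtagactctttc
POSTN: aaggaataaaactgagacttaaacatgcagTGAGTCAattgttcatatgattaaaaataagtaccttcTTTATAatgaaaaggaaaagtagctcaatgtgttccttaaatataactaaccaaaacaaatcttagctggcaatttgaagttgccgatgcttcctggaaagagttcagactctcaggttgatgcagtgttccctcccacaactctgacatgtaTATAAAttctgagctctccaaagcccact
The FN1 sequence (chr2:215436069-215436318, minus strand) had 76.4% G and C, 32 CpG dinucleotides and 6 matches to GGGCGG. That of BGN (chrX:153494730-153494979, plus strand) had 74.0% G and C, 16 CpG and 5 such matches, and the TGFBI promoter had 72.8%, 20 CpG and 3 matches. By contrast the POSTN sequence (chr13:37598769-37599018, minus strand) had 36.4% G and C, 1 CpG, TATAAA on the gene's own strand at positions -29 to -24 before the start, and TGANTCA at -220 to -214. The FN1 sequence has the similar letters ATATAA at -29 to -24, which a search for the exact string TATAAA does not mark. The FMOD sequence (chr1:203351123-203351372, minus strand) lay between with 51.6% and 9 CpG, and it had 2 matches to GGGCGG and 1 to TATAAA, the latter on the opposite strand at -177 to -172. Over all 35116 promoters the medians were 58.0% and 11 CpG. These are descriptions of the letters, and no measurement here bears on which factor binds them.

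The first question was when the genes came up as the embryoid bodies spread and differentiated. By day 2, FN1, POSTN and FMOD had risen, and by day 4 most of the proteoglycans had followed. Of the 10 genes, 3 were called higher on day 2 than on day 0, against 4.40% of all genes tested. A further comparison, day 4 against day 2, called 7 of the 10 higher, against 4.97% of all genes.

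FN1, the fibronectin gene, was at 4481 in undifferentiated H1 cells and at 4434, 2340 and 3247 in the day 0 embryoid bodies. All 3 day 2 samples were at 90700, the maximum of the table, as were 16 of the 34 samples. The day 2 difference was a log2 fold change of 4.81 (SE 0.428, adjusted p = 1.04e-09 by limma). With all 3 day 2 samples at that ceiling, the size of this change is uncertain. On day 4 the values were 48061, 48061 and 90700, which overlapped day 2.

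POSTN, the periostin gene, was at 20, 30 and 42 on day 0 and at 198, 231 and 248 on day 2, which is 2.89 on the log2 scale (SE 0.356, adjusted p = 3.23e-07). The groups did not overlap. Day 4 gave 372, 162 and 696, a wide spread that overlapped day 2 (0.63, adjusted p = 0.179). Its sequence relative TGFBI behaved otherwise over these days. It stood at 398, 389 and 310 on day 0, at 232, 328 and 294 on day 2 and at 2401, 2380 and 2588 on day 4. The day 4 samples all lay above the day 2 samples, with a log2 fold change of 3.12 (SE 0.357, adjusted p = 8.67e-08).

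LUM, encoding the keratan sulphate proteoglycan lumican, was at 8, 9 and 10 on day 2 and at 18772, 18772 and 20424 on day 4. That log2 fold change of 10.92 (SE 0.529, adjusted p = 8.81e-15) took it in a single step to 79.1% of its highest population mean. DCN, its neighbour on the chromosome, was listed at 0 in all 3 day 0 samples and was at 2, 2 and 0 on day 2 and at 212, 125 and 254 on day 4. DCN rose too on day 4 (6.51, SE 0.426, adjusted p = 2.34e-12), but only to 0.621% of its highest population mean. With day 2 values this close to 0, the size of the DCN and LUM changes depends on the pseudocount of 1. BGN, which encodes biglycan, went from 264, 336 and 272 on day 2 to 2438, 2770 and 2540 on day 4 without overlap (3.15, SE 0.417, adjusted p = 9.04e-07).

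FMOD, encoding fibromodulin, was called at both steps. It stood at 16, 22 and 13 on day 0, at 100, 113 and 116 on day 2 and at 1484, 1484 and 1193 on day 4. The log2 fold changes were 2.65 (adjusted p = 0.000273) and 3.64 (adjusted p = 4.04e-06), and no groups overlapped. OGN and PRELP rose at low values. OGN, the osteoglycin gene, was at 2, 2 and 0 on day 2 and at 32, 32 and 20 on day 4 (3.77, adjusted p = 6.25e-06). PRELP went from 18, 16 and 24 to 94, 66 and 86 (2.03, adjusted p = 0.000575), just past the 4-fold line. Without replicate 1 or 2 of day 2, or replicate 1 or 3 of day 4, its log2 fold change was 1.99, 1.91, 1.93 or 1.99 and it was no longer called. With a pseudocount of 10 the changes of OGN (1.73) and PRELP (1.65) were also under 4-fold. ASPN was at 0 to 2 in every sample up to day 4.

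Mesenchymal markers moved over the same days, with a sum of 10193 to 11338 on day 2 and of 54916 to 66529 on day 4. The endothelial sum went from between 10269 and 10676 to between 35664 and 40277. Most of it on both days was KDR, at 9485 to 9886 and then 25836 to 29000. CDH5, PECAM1, TEK, ESAM and EGFL7 rose too. CLDN5 (4 to 11, then 2 to 8) did not, and ROBO4 (1 to 2, then 4 to 12) stayed low. The part of the mesenchymal and endothelial markers in the rise of the 10 genes was not tested.

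On day 6 the cells were sorted, and most of the genes parted between the fractions. POSTN and DCN rose further in CD43- cells, while POSTN, DCN, LUM, FMOD, OGN and PRELP fell in CD43+ cells relative to day 4. At that step TGFBI (-1.80, adjusted p = 0.000142) and FN1 (-1.64, adjusted p = 0.00221) passed the p threshold in CD43+ cells, without overlap, but not 4-fold, and BGN (-0.15, adjusted p = 0.792) did not pass it. OGN and PRELP were lower than on day 4 in CD43- cells as well, without overlap and under 4-fold. Their log2 fold changes there were -1.84 (adjusted p = 0.00968 by limma) and -1.07 (adjusted p = 0.0486). Against day 4, 2 of the 10 genes were called higher in CD43- cells (4.94% of all genes) and 6 lower in CD43+ cells (7.73% of all genes). With a pseudocount of 10 the OGN change, from 32, 32 and 20 to 6, 4 and 2, was -1.43 and the count was 5. Both comparisons share the day 4 samples, which were not sorted. Compared directly, CD43+ cells had 7 of the 10 genes lower than CD43- cells on day 6, against 7.85% of all genes.

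POSTN stood at 10084, 10840 and 20424 in CD43- cells and at 64, 62 and 56 in CD43+ cells. The difference between the fractions was a log2 fold change of -7.73 (SE 0.356, adjusted p = 3.9e-15). Both fractions had moved away from day 4, by 5.23 in CD43- cells (adjusted p = 4.44e-11) and by -2.50 in CD43+ cells (adjusted p = 1.72e-06). The mean in CD43+ cells was 0.44% of that in CD43- cells.

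DCN was at 2177, 1624 and 5043 in CD43- cells and at 12, 14 and 24 in CD43+ cells, a difference of -7.27 (SE 0.426, adjusted p = 3.44e-13). LUM was at 17368, 18772 and 37186 and at 110, 182 and 274, a difference of -7.02 (SE 0.529, adjusted p = 3.45e-11). The 2 neighbouring genes thus differed by similar amounts between the fractions, but they reached that point by different steps. In CD43- cells LUM did not pass the test against day 4 (0.25, adjusted p = 0.735) and DCN rose by 3.78 (adjusted p = 9.25e-08). In CD43+ cells LUM fell by 6.77 and DCN fell by 3.49 on the log2 scale (adjusted p = 7.58e-11 and 1.58e-07).

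FMOD was at 582, 639 and 1468 in CD43- cells and at 50, 52 and 114 in CD43+ cells (-3.59, SE 0.532, adjusted p = 3.03e-06). TGFBI was at 2522, 3822 and 4196 and at 492, 630 and 1138, a smaller difference of -2.28 (SE 0.357, adjusted p = 6.92e-06). Neither gene overlapped between the fractions. PRELP was at 34, 28 and 58 in CD43- cells and at 6, 6 and 14 in CD43+ cells (-2.12, adjusted p = 0.000236). Its call rested on single samples, since the value was -1.82 without CD43- replicate 3, -1.93 without CD43+ replicate 1 or 2, and -1.40 with a pseudocount of 10. OGN was under 11 in all 6 samples and did not pass the test (-0.75, 95% interval -1.91 to 0.42, adjusted p = 0.286).

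On day 6 FN1 was lower in CD43+ cells, and BGN did not pass the test between the fractions. FN1 was at 13327, 22847 and 22847 there and at the table's maximum in all 3 CD43- samples. Against day 4 its CD43+ samples were lower without overlap (-1.64, SE 0.428, adjusted p = 0.00221), past the p threshold but not 4-fold. Between the fractions the log2 fold change was -2.25 (SE 0.428, adjusted p = 8.67e-05 by limma), and its size is uncertain because the CD43- samples are at the maximum. Without CD43+ replicate 1 it was -1.99 and not called. BGN was at 2054, 2016 and 3045 in CD43+ cells and at 4148, 4652 and 1948 in CD43- cells. These groups overlapped, and the difference of -0.53 (95% interval -1.38 to 0.33, adjusted p = 0.308) did not pass the test, nor did that of CD43+ cells against day 4 (-0.15, adjusted p = 0.792). The mean of BGN in CD43+ cells was 66.2% of that in CD43- cells. HAUS7, which overlaps BGN, was at 540 to 634 in the CD43+ samples and at 374 to 455 in the CD43- samples.

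Mesenchymal and endothelial markers were present in the CD43+ fraction of day 6. The mesenchymal sum was 24486, 24807 and 47018 in its replicates. Most of it was COL1A1, a collagen gene, at 18751 to 37166 against 25836 to 37166 in CD43- cells, and CDH11 at 2743 to 6460 against 4710 to 7766. The other 8 markers were each lower in all CD43+ than in all CD43- samples. Among them PRRX1 was at 11 to 20 against 904 to 1900, TCF21 at 0 to 14 against 232 to 560 and PDGFRA at 60 to 198 against 1040 to 3045. In the CD43+ fraction the replicate with 47018 was also the one with the highest values of TGFBI, BGN, DCN, LUM, FMOD and PRELP. The same replicate had the lowest values of POSTN (56) and OGN (2), and its FN1 value of 22847 was tied with another replicate. The endothelial sum was 33570 to 43568 there and 12306 to 15365 in the CD43+ cells of day 9. That fall was mainly in KDR (15842 to 22812, then 2484 to 5188) and CDH5 (4481 to 6144, then 440 to 584). TEK and CLDN5 were also lower in every day 9 sample. PECAM1 (5314 to 5704, then 4078 to 4329) and EGFL7 (3853 to 4504, then 3222 to 3276) fell less. ESAM and ROBO4 overlapped between these days. The paper reports that early blood cells express endothelial and angiogenic genes for a short time. Which cells of the fraction carried these markers was not tested, nor was their part in the day 6 values.

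From day 9 on, almost all of the genes were lower in CD43+ cells. On day 9 the call was met by 8 of the 10 genes, with OGN the tested exception, against 12.8% of all genes. It was met by 9 of the 10 on day 12 (14.4% of all genes) and by 9 of the 10 on day 16 (13.6% of all genes). Over the 9 tested genes the median log2 fold change was -2.28 at the first sort (day 6) and then -5.37, -5.54 and -6.71, while that of all genes tested was between 0.14 and 0.24. The last of these medians counts the fitted value of PRELP, whose day 16 CD43+ samples are listed at 0. The gene set was chosen with earlier results of these data known, so these counts describe the genes and are not a test of the group.

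POSTN in CD43- cells was at 20424, 25870 and 12848 on day 9, at 18772, 22842 and 20424 on day 12 and at 37186, 25870 and 37186 on day 16. In CD43+ cells it was at 63, 108 and 124, then 160, 230 and 216, then 215, 198 and 166. Every CD43+ sample was below every CD43- sample, the differences being -7.63, -6.68 and -7.42 (SE 0.356 each). The CD43+ mean was 0.499%, 0.977% and 0.578% of the CD43- mean on the 3 days.

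DCN and LUM showed the same layout. DCN reached 11508, 18772 and 13324 on day 9 and 29026, 37186 and 29026 on day 16 in CD43- cells, against 30, 71 and 117 and 298, 276 and 168 in CD43+ cells. Day 12 lay between them for DCN in CD43- cells, at 22842, 29026 and 22842, with 203, 240 and 278 in CD43+ cells. LUM already stood at 12848, 22842 and 18772 in CD43- cells on day 9 and at 25870, 20424 and 25870 on day 12, against 56, 100 and 198 and then 298, 232 and 460 in CD43+ cells. It was at 22842 in each of the day 16 CD43- samples and at 238, 200 and 186 in the CD43+ samples. The day 16 log2 fold changes were -7.03 (SE 0.426, adjusted p = 6.94e-14) for DCN and -6.78 (SE 0.529, adjusted p = 1.11e-11) for LUM, and their CD43+ means were 0.779% and 0.911% of the CD43- means.

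BGN, which was not called on day 6, was called on day 9, and the FN1 difference was larger than on day 6. BGN was at 9230, 3396 and 8264 in CD43- cells and at 152, 182 and 359 in CD43+ cells (-4.88, SE 0.417, adjusted p = 9.73e-11). FN1 was at 424, 540 and 2938 in CD43+ cells against the maximum in all CD43- samples (-6.69, SE 0.428, adjusted p = 3.44e-13). The difference between fractions had itself changed from day 6 to day 9. That change was -4.36 for BGN (SE 0.589, adjusted p = 7.32e-06) and -4.44 for FN1 (SE 0.605, adjusted p = 7.98e-06). TGFBI (-2.15, adjusted p = 0.00343) and PRELP (-3.26, adjusted p = 0.000467) were called as well, making 4 of the 10 genes against 4.18% of all genes. With a pseudocount of 10 the PRELP change was -1.55 and not called. For POSTN, DCN and LUM the change was 0.10, -0.53 and -0.38, with adjusted p of 0.924, 0.605 and 0.782. Both BGN and FN1 stayed low in the positive fraction after that. BGN was at 138, 28 and 115 in CD43+ cells on day 12 and at 130, 154 and 108 on day 16, with CD43- values of 3780, 2862 and 4368 and of 6135, 6242 and 6357. FN1 was at 3167, 1444 and 2882 and then 3658, 2291 and 2168 in CD43+ cells, values in the range of the day 0 embryoid bodies or below it. The TGFBI call was lost without day 6 CD43- replicate 1 (-1.92) or day 6 CD43+ replicate 3 (-1.80).

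TGFBI remained measurable in CD43+ cells throughout. It was at 253, 300 and 356 on day 9, at 2466, 500 and 550 on day 12 and at 1550, 1597 and 1900 on day 16 in CD43+ cells. The CD43- samples were at 10844, 8802 and 10446 on day 12 and at 22847, 18776 and 22847 on day 16. The fractions never overlapped, with log2 fold changes of -4.42, -3.51 and -3.67 (SE 0.357 each), and the CD43+ mean was 4.65%, 11.7% and 7.83% of the CD43- mean. The day 12 CD43+ replicate at 2466 also had the highest sum of 8 macrophage markers that day, 78175 against 23336 and 18322 in the other replicates. On day 16 the macrophage sum was 54029 to 63208, and on day 9 it was 2669 to 3122. The part of macrophages in the TGFBI values was not tested.

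The remaining proteoglycans separated on different days. On day 9 FMOD was at 938, 1986 and 1070 in CD43- cells and at 20, 36 and 99 in CD43+ cells (-4.88, SE 0.532, adjusted p = 8.83e-09). It was at 1332, 3380 and 3020 in CD43- cells on day 12 and at 19, 4 and 28 in CD43+ cells (-7.39, SE 0.532, adjusted p = 2.14e-12). On day 16 it was at 8684, 5254 and 7038 against 92, 64 and 45 (-6.71, adjusted p = 1.53e-11). OGN did not pass the test on day 9, at 19, 17 and 50 in CD43- cells and 10, 14 and 8 in CD43+ cells (-1.21, 95% interval -2.37 to -0.05, adjusted p = 0.0629). On day 12 it was at 394, 128 and 312 against 6, 4 and 11 (-5.07, SE 0.567, adjusted p = 1.03e-08), and on day 16 at 166, 132 and 170 against 10, 6 and 12 (-3.96, adjusted p = 7.21e-07). CENPP, which overlaps OGN and ASPN, lay in the opposite direction on day 12, at 24 to 78 in CD43- cells and 194 to 244 in CD43+ cells.

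PRELP was unsteady in CD43+ cells, at 0, 1 and 2 on day 9, at 34, 36 and 12 on day 12 and listed at 0 in all 3 samples of day 16. In CD43- cells it was at 58, 62 and 114, then 146, 211 and 292, then 127, 173 and 171. It was below the CD43- samples on each of these days. The difference was -5.37 on day 9 (SE 0.439, adjusted p = 4.17e-11) and -3.03 on day 12 (adjusted p = 8.47e-07). No fold is given for day 16 because one group is listed at 0. ASPN was too low to test. It was at 8, 0 and 7 in CD43- cells on day 12, at 6, 2 and 4 on day 16, and at most 2 in every CD43+ sample.

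After day 9 the difference between fractions was called changed for PRELP, FMOD and OGN among the 9 tested genes, and the PRELP and FMOD calls did not hold under other settings. From day 9 to day 12 it moved by 2.35 for PRELP (adjusted p = 0.0054), the single gene of the 10 called in that direction against 4.61% of all genes. It moved by -2.50 for FMOD (adjusted p = 0.0134) and -3.86 for OGN (adjusted p = 0.000632), 2 of the 10 against 4.39%. From day 12 to day 16 PRELP was called lower again, 1 of the 10 against 2.17%. The FMOD change was -1.89 and -1.75 without day 9 CD43+ replicate 3 or day 12 CD43+ replicate 2, and the PRELP change to day 12 was 1.91 without day 9 CD43+ replicate 1, none of which was called. With a pseudocount of 10 the PRELP change to day 12 was 0.33 (adjusted p = 0.602) and that to day 16 was -1.43. When only the populations of days 9 and 12 were fitted, OGN alone was called (adjusted p = 0.00563), with 0.0962 for FMOD and 0.0523 for PRELP.

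**Figure D1:**
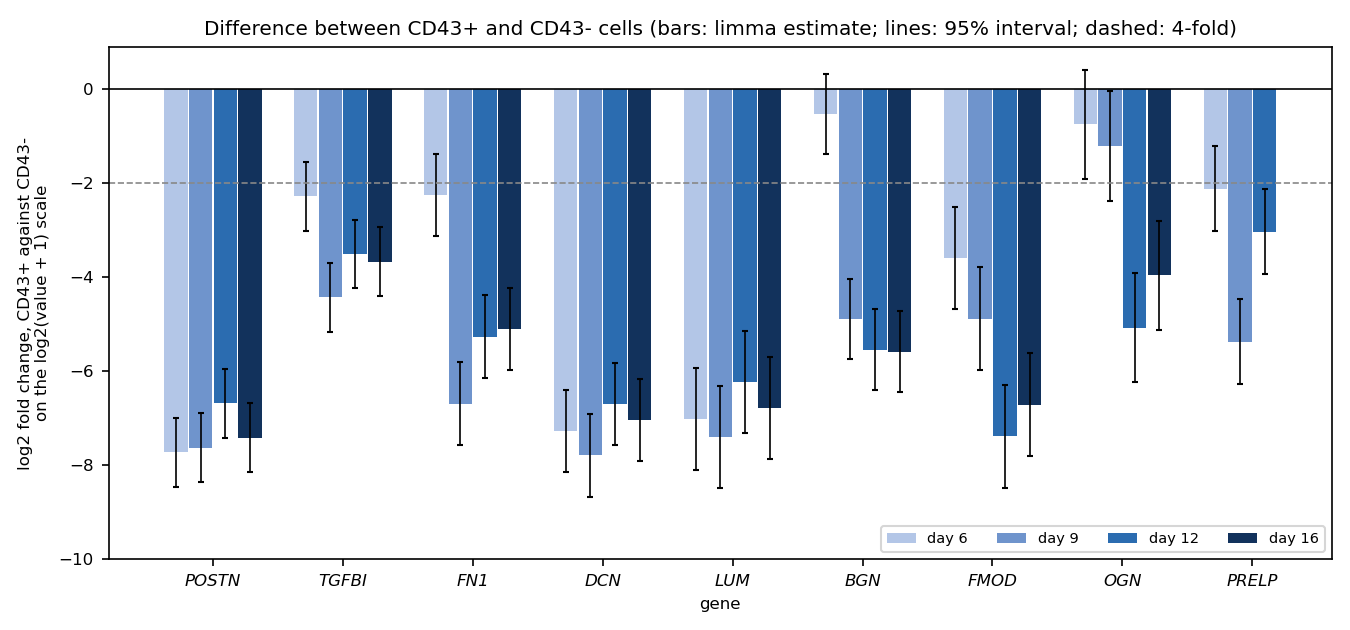
Log2 fold change of CD43+ against CD43- cells (vertical axis) for the 9 tested genes (horizontal axis) on days 6, 9, 12 and 16, from light to dark; bars are limma estimates on the log2(value + 1) scale from 3 samples a group, lines are 95% intervals, and the dashed line is 4-fold. POSTN, DCN and LUM lie between -6.23 and -7.79 on all 4 days, BGN moves from -0.53 to -4.88 between days 6 and 9. PRELP has no bar on day 16 because its CD43+ samples are listed at 0.

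Within CD43- cells several of the genes went on changing after day 6, each on its own days. Day 16 cells were sorted on CD45 as well, so differences from day 16 mix time with the changed sort. Compared over the whole interval, day 16 against day 6, 4 of the 10 genes were called higher, against 6.91% of all genes. They were TGFBI (2.64, SE 0.357, adjusted p = 6.5e-07), DCN (3.59, SE 0.426, adjusted p = 8.14e-08), FMOD (3.07, SE 0.532, adjusted p = 2.25e-05) and OGN (4.30, SE 0.567, adjusted p = 4.38e-07). PRELP (adjusted p = 0.000376) lay just under the 4-fold line and was not called. POSTN passed the p threshold at 1.33 (adjusted p = 0.00247) but not 4-fold. LUM (-0.01, 95% interval -1.09 to 1.08) and BGN (0.90, 95% interval 0.04 to 1.75) did not pass, and FN1 could show no change because all 12 CD43- samples were at the table's maximum.

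By step, DCN rose from day 6 to day 9 by 2.44 (SE 0.426, adjusted p = 0.000562), 1 of the 10 against 1.10% of all genes. A fit of those populations alone gave DCN an adjusted p of 0.0793. The OGN values rose from day 9 to day 12 by 3.25 (SE 0.567, adjusted p = 7.39e-05), 1 of the 10 against 4.52% of all genes. From day 12 to day 16 limma called 0 of the 10. At that step TGFBI (1.10, adjusted p = 0.0138) and FMOD (1.52, adjusted p = 0.0215) passed the p threshold but not 4-fold, and these were the only members with an unadjusted p under 0.05. TGFBI was nevertheless higher in all 3 CD43- samples of each day than in those of the sampling day before. Consecutive steps share samples, so these differences are not independent of one another.

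The order of the rise can also be read from each gene's mean as a percent of its highest population mean. FN1 was at 100% on day 2, LUM at 79.1% on day 4, and POSTN at 1.23% on day 4 and 41.2% in the CD43- cells of day 6. The FN1 percent is set by the table's maximum, held by all its day 2 and CD43- samples, so a later rise could not show. Its day 4 mean was lower, at 68.7%. DCN passed from 9.29% on day 6 to 45.8% on day 9. TGFBI and FMOD were at 46.7% and 36.9% on day 12 and highest on day 16, whereas OGN and PRELP had their highest means in CD43- cells on day 12, at 278 ± 136 and 216 ± 73.2 (SD, n = 3 each). These percents are within each gene and do not compare one gene with another.

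Within CD43+ cells, FN1, BGN and PRELP fell between day 6 and day 9, 3 of the 10 against 3.97% of all genes. The log2 fold changes were -4.44 for FN1 (adjusted p = 9.32e-09), -3.43 for BGN (adjusted p = 3.81e-07) and -2.31 for PRELP (adjusted p = 0.000182). No groups overlapped for FN1 or BGN. The PRELP call was lost without day 6 CD43+ replicate 3 (-1.95) or day 9 CD43+ replicate 1 (-1.88). With a pseudocount of 10 the PRELP change was -0.74 with an adjusted p of 0.0598. In the same samples the mesenchymal sum went from between 24486 and 47018 to between 1951 and 5046, carried mainly by COL1A1 (median 18751 to 1756) and CDH11 (3108 to 37). PDGFRA (71 to 74), PRRX1 (17 to 10) and TCF21 (4 to 2) were low on both days. Whether the fall of these markers bears on the falls of FN1, BGN and PRELP was not tested. DCN moved the other way, from 12, 14 and 24 to 30, 71 and 117 (1.92, adjusted p = 0.00099), under 4-fold.

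From day 9 to day 12, PRELP alone of the 10 was called higher in CD43+ cells (3.82, adjusted p = 4.5e-08), against 8.45% of all genes. POSTN (1.07), TGFBI (1.55), FN1 (1.43), DCN (1.90) and LUM (1.60) passed the p threshold upwards without reaching 4-fold, and BGN (-1.48) and FMOD (-1.58) passed it downwards. The count depended on single samples. It was 4, with FN1, DCN and LUM added, without day 9 CD43+ replicate 3, the one with the highest values of these genes that day. It was 2 without day 9 CD43+ replicate 1 or day 12 CD43+ replicate 3, with FMOD lower, and 2 without day 12 CD43+ replicate 1, with DCN added. From day 12 to day 16, FMOD was called higher (2.19, adjusted p = 0.00163), 1 of the 10 against 3.79% of all genes, and PRELP lower, 1 of the 10 against 5.26%. FMOD was at 19, 4 and 28 on day 12 and at 92, 64 and 45 on day 16, and its log2 fold change was 1.44 without day 12 replicate 2 and 1.94 without day 16 replicate 1.

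The 12 populations can be ordered by each gene's level. POSTN, TGFBI, DCN and FMOD had their highest mean in CD43- cells of day 16, LUM in those of day 6, BGN in those of day 9, and OGN, ASPN and PRELP in those of day 12. Among the 10 pairs of neighbours in the order of 11 replicated populations, the samples did not overlap in 6 pairs for DCN, 5 for TGFBI, 4 for POSTN, 3 for LUM, BGN and PRELP, 2 for FN1, FMOD and OGN and 0 for ASPN. Most neighbours in these orders therefore did not differ beyond the spread of their samples.

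Over the 11 population means of log2(value + 1), the 36 pairs among the 9 tested genes had a Pearson r from 0.412 for FN1 and OGN to 0.929 for TGFBI and DCN. The median was 0.748, and 14 pairs were above 0.8. FN1 correlated with OGN and DCN least, and PRELP with DCN. This describes a shared layout across populations of one cell line along one differentiation course, and r says nothing of shared control.

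Among all tested genes, the one whose means over the same 11 populations were most like those of each member was named. It was CNTN5 for POSTN (r = 0.99), CD248 for TGFBI (0.977), ELFN1 for FN1 (0.965), AQP1 for DCN (0.981), IGF2 for LUM (0.987), P3H3 for BGN (0.984), BMP5 for FMOD (0.982), CILP for OGN (0.945) and BCAS4 for PRELP (0.963). CD248 is known as a surface protein of fibroblasts and pericytes, P3H3 as a collagen-modifying enzyme and CILP as a cartilage matrix protein. With only 11 points such values are a description.

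Other genes of the same pathways were counted from lists. Of 11 other small leucine-rich proteoglycans, 6 were tested, of which on day 6 CD43+ cells had 1 higher and 1 lower. OPTC (opticin), which lies 2.8 kb from PRELP, was the one higher (2.78, adjusted p = 4.02e-05), at 8 to 12 in CD43+ and 0 to 3 in CD43- cells, and PODN (podocan) the one lower (-2.20, adjusted p = 0.0017). On day 9 limma called 0 of the 6, on day 12 it called 1 higher and 2 lower, and on day 16 it called CHADL (3.54) and PODNL1 (2.97) higher and TSKU (-3.26) lower. Their median differences lay between -0.43 and 0.02 on the 4 days. OMD, KERA, EPYC, NYX and ECM2 were not analysed here.

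The larger proteoglycans and hyaluronan link proteins (26 tested) had 7 members lower and 0 higher on day 6, and 19, 19 and 18 lower with 1 higher on days 9, 12 and 16. Their median log2 fold changes were -1.58, -3.61, -3.42 and -3.40. VCAN (versican) and ACAN (aggrecan), which bind hyaluronan, were lower on day 6 by log2 fold changes of -5.56 and -5.48. The one higher on day 16 was SRGN, encoding serglycin, the proteoglycan of blood cell granules, with means of 48025 in CD43+ and 1471 in CD43- cells (5.23, SE 0.943, adjusted p = 2.18e-05).

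Matricellular and fibronectin-associated genes (39 tested) had 14 lower and 0 higher on day 6, 20 and 1 on day 9, 25 and 2 on day 12, and 23 and 2 on day 16. WISP1 (-6.32) and NID2, which encodes a basement membrane protein (-5.89), differed most on day 6. TNC, encoding tenascin-C (-7.90), and MGP (-7.16) were lower on day 16, and STAB1 (2.27) and EMILIN2 (2.20) were higher. Among 28 enzymes that build or sulphate the glycosaminoglycan chains carried by proteoglycans, 4 were lower and 0 higher on day 6, and 6 lower and 3 higher on day 16. DSE, which makes the dermatan sulphate of chains such as those on decorin and biglycan, was lower on day 6 (-2.87, adjusted p = 1.61e-11). The sulphotransferases CHST13 (6.17) and CHST11 (2.65) were higher, and CHST1 (-5.96) and CHST3 (-5.20) lower, in CD43+ cells on day 16.

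Receptors and assembly partners (25 tested) had members called in both directions, with 12 lower and 2 higher on day 6, 17 and 2 on day 9, 15 and 4 on day 12, and 14 and 4 on day 16. The integrin subunits ITGB3 (6.14, adjusted p = 1.37e-09) and ITGA4 (2.32, adjusted p = 0.00114) were the 2 higher in CD43+ cells on day 6. ITGA4, part of a fibronectin receptor, was at a mean of 7666 in CD43+ and 188 in CD43- cells on day 16 (5.42, adjusted p = 2.63e-09). TLR2, a receptor for biglycan among other ligands, was higher on day 16 as well (7.93, adjusted p = 3.32e-12). DDR2, a collagen receptor, was lower on day 6 (-5.70) and day 16 (-7.28), and LOX, which cross-links collagen, was lower on day 16 (-7.13). These counts stand beside the shares of all genes called lower given above, from 7.85% to 14.4%. The shares of all genes called higher in CD43+ cells were, in the order of the 4 days, 4.69%, 8.65%, 11.8% and 12.2%, and the counts of receptors and enzymes higher on the later days lie near them.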

How the data were processed

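Total RNA of 34 samples was sequenced by the authors at 2 companies, and which sample was run at which is not given in the sources used here. Per the study's methods, reads were aligned with bowtie2, genes were quantified with RSEM on an Ensembl index, and tag counts were normalised with EDASeq, including for GC content. The submitters' processing notes also name STAR 2.7 and hg38. The deposited values are treated as a score with no unit, since every sample had the same total, median and maximum although the table is titled CPM. The deposited GC column, a percent per gene, was not used in the fit. Samples were grouped by the labels, and 0 value columns were left unmapped. No 2 samples held identical values.

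Here log2(value + 1) was fitted with limma 3.58.1 (R 4.3.3, trend on) over 33 samples, leaving out the single H1 sample. A gene was kept when 3 or more samples had a value of 10 or more, which left 19788 of 20255 and took out 467. There were 18 comparisons, each adjusted by the Benjamini-Hochberg method over all genes tested. The fit was tested on simulated data. The gene set and the lists were chosen with earlier results of these data known. Pathway genes named were those called with the largest difference, up to 2 in each direction per list, on days 6 and 16. Same-numbered CD43- and CD43+ samples deviated together on day 6 (correlations 0.109 to 0.199). They did so more weakly on day 12 (0.039 to 0.108), where samples of different number gave -0.089 to -0.007. On days 9 and 16 same-numbered pairs gave -0.015 to 0.078. The rule used here counted only day 6 as paired, and weak pairing on day 12 is possible. Alternatives were the pseudocount, the filter, the scaling, the fold threshold, the samples in the fit, a replicate block and leaving out each replicate. Depth is unknown, so no counting interval is given, and p-values measure the spread between repeats of one line, which may be partly technical.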

Additional observations from a re-analysis of the deposited data

Results flagged for a closer look

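The difference between CD43+ and CD43- cells itself changed between sampling days for 6 of the 10 genes, in 8 tests of that change called by limma. From day 6 to day 9 the log2 difference moved by -2.15 for TGFBI, -4.44 for FN1, -4.36 for BGN and -3.26 for PRELP. In each of these the CD43+ cells were further below the CD43- cells on day 9. From day 9 to day 12 it moved by -2.50 for FMOD, by -3.86 for OGN and by 2.35 for PRELP, and from day 12 to day 16 by -4.26 for PRELP. Of all genes tested, 4.18% were called lower for the change to day 9. The shares were 4.39% lower and 4.61% higher for the change to day 12, and 2.17% lower for that to day 16. The TGFBI and FMOD calls were lost when single replicates were left out, as given above. The FN1 values are limited by the table's maximum in all CD43- samples. The PRELP values rest on CD43+ samples at 0, 1 and 2 on day 9 and listed at 0 on day 16, so their size depends on the pseudocount. The fitted day 16 value is no fold for that reason, and with a pseudocount of 10 all 3 PRELP changes lost their call (-1.55, 0.33 and -1.43).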

How the results depend on the processing

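Of 71 called fold changes, recomputed 1041 times in all, 1010 values kept their call and direction, 31 lost the call and 0 reversed. The 2-fold threshold was applied to the main fit itself. Its 71 values are in these totals but could not lose the call or reverse. The losses were 11 with a pseudocount of 10, 3 when only the populations compared were fitted and 17 when a replicate was left out, and the cause was not tested. No called fold change was lost with the replicate block, where the count of genes lower in CD43+ cells stayed at 7 on day 6, 8 on day 9 and 9 on day 12. A pseudocount of 0.1 gave 5 genes on day 2 against day 0 (DCN and LUM added). A pseudocount of 10 gave 0 genes in CD43+ cells for both later steps and 0 for the change of the difference from day 12 to day 16. Median-of-ratios scaling gave 2 genes for CD43+ cells on day 12 against day 9, and it moved the median of all genes by at most 0.21 in size (-0.21 for the day 9 fractions). A threshold of 2-fold gave 4 genes for day 6 CD43- cells against day 4, where OGN and PRELP passed it downwards, 2 for CD43- day 12 against day 9, 2 for CD43- day 16 against day 12, 5 for CD43+ day 9 against day 6 and 8 for CD43+ day 12 against day 9. Fitting only the populations compared gave 0 genes for CD43- day 9 against day 6 and 1 for the change from day 9 to day 12. It gave no value for PRELP in CD43+ cells on day 9 against day 6, which did not pass the filter there. Leaving out a replicate gave 1 to 4 genes for CD43+ day 12 against day 9 and 1 to 2 for CD43+ day 16 against day 12. The shares of all genes given earlier belong to the main settings, with a 4-fold line and a pseudocount of 1. No such share was computed for the altered settings. The altered counts therefore cannot show whether the 10 genes stood out from all genes there. Values tied to ranks and the ceiling on FN1 limit the size of every fold change.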
